A study of Mus musculus with 18 samples.

Results

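The LPS response of macrophages that had already received the BET inhibitor (+)-JQ1 was measured by ATAC-seq as the contrast of 3 LPS + (+)-JQ1 libraries with 3 libraries of cells given (+)-JQ1 alone. These 6 of the 18 libraries of the study were chosen by their labels only. All cells were bone marrow-derived macrophages (BMDMs) from 3 Il10-/- male mice, 12 weeks old, on a C57BL/6J background, grown for 6 days with L929-conditioned medium. Each group has 3 numbered replicates, and which mouse a number stands for is not given in the sources used here. Both groups received (+)-JQ1 at 500 nM for 12 hours, after which 50 ng/mL LPS or PBS was added for a further 4 hours. The response of untreated cells, LPS against unstimulated, came from 6 other libraries and stands beside it, so that the contrasts share no library. The remaining 6 libraries received IL-10 and entered only the filter of peaks, the scaling and the shared estimate of the spread. No group was wild type, and every value below belongs to macrophages that cannot make IL-10.

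BET proteins bind acetylated histone tails through their bromodomains and help to recruit the transcription elongation machinery, and (+)-JQ1 occupies these bromodomains. LPS, a component of the outer membrane of Gram-negative bacteria, is sensed by TLR4 and activates NF-kappaB, AP-1 and interferon regulatory factors, which act at promoters and distal enhancers of inflammatory genes. In ATAC-seq a transposase cuts open DNA, so that reads accumulate at accessible regions. The comparison addresses which of the changes in accessibility that follow LPS still take place when BET bromodomains are already occupied.

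Summed over peaks, the (+)-JQ1 libraries held 15928211 to 20206975 counts and the LPS + (+)-JQ1 libraries 13619436 to 25908198, within the range of all 18 libraries (12020526 to 25908198). LPS + (+)-JQ1 replicate 1 was the shallowest of the 6, and its differences from the (+)-JQ1 library of the same number were larger than those of the other replicates, so counts are also given without it. Within the groups, log2 CPM correlated between libraries at 0.940 to 0.960, and no 2 libraries were duplicates, with a chi-square per peak of 1.94 to 2.61. Promoter peaks of 8 of 8 macrophage markers were present, and their summed normalized counts were 5091 to 5300 with (+)-JQ1 and 4898 to 5338 with LPS + (+)-JQ1. Among the T cell markers Cd3e, Cd3g and Cd8a had no promoter peak, nor did Blk of B cells, Ly6g of neutrophils, Col1a2, Dcn and Lum of fibroblasts or Hbb-b1 of erythroid cells. The markers with a peak summed to 460 to 530 normalized counts with (+)-JQ1 and 531 to 585 with LPS for 2 of 5 T cell markers, and to 256 to 300 and 299 to 395 for 3 of 5 B cell markers. For 4 of 5 neutrophil markers the sums were 924 to 1004 and 899 to 965. Single markers moved within these sums: Camp opened (mean 71.0 to 194 normalized counts), S100a8 closed (288 to 176) and Ms4a1 of B cells opened (88.7 to 151). Macrophage markers moved too, with 1 promoter peak opened and 3 closed. Mean counts summed over the promoter peaks of a gene went from 1295 to 810 at Mertk, 730 to 536 at Lyz2 and 1108 to 1401 at Spi1. The part of other cell types in the results below was not tested. Because cells were measured in bulk, fewer responding cells and a smaller change per cell cannot be told apart. P-values measure the spread between these libraries, part of which may be technical.

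After LPS, more peaks opened than closed in (+)-JQ1-treated cells. Of 157564 distal peaks tested, 9309 opened (5.91%) and 5865 closed (3.72%), and of 36666 promoter peaks 1737 opened (4.74%) and 1089 closed (2.97%). A peak was called opened or closed (a differentially accessible region, DAR) at an FDR under 0.05 in the quasi-likelihood test of edgeR (Benjamini-Hochberg adjusted) and a log2 fold-change beyond 0.5 in size. Over all peaks these were 11046 opened (5.69%) and 6954 closed (3.58%), so 61.4% of the DARs were openings. The changes were larger upward: 53.9% of the opened distal DARs but 31.4% of the closed distal DARs lay beyond a log2 fold-change of 1, and the same shares at promoters were 37.2% and 15.6%. Opened distal DARs started from a median of 44.4 normalized counts with (+)-JQ1 and closed ones from 110. The part of this difference in the sizes was not tested. A log2 fold-change above 2 was reached by 610 distal and 47 promoter peaks, whereas 41 distal and 2 promoter peaks fell below -2. The median log2 fold-change was 1.05 for opened and -0.82 for closed distal DARs, and 0.87 and -0.67 at promoters, against a median of -0.01 over all tested peaks.

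In untreated cells the same LPS contrast opened 17553 distal (11.1%) and 5237 promoter peaks (14.3%) and closed 17343 distal (11%) and 2459 promoter peaks (6.71%), or 22790 opened in all (11.7%). Openings were 53.5% of these DARs. That share depended on the scaling of the libraries: with total counts in peaks in place of TMM it was 25.4% in untreated cells and 68.9% in (+)-JQ1-treated cells. This scaling moved the median log2 fold-change over all peaks from -0.03 to -0.26 in untreated cells and from -0.01 to 0.03 in treated cells, a larger move in untreated cells. The untreated counts also moved with other choices: the opened promoter peaks numbered 2162 under total counts, 2595 under loess offsets, 2600 when promoter and distal peaks were scaled apart, 3458 without Unstimulated replicate 1 and 8776 without Unstimulated replicate 3. Total counts also gave 10623 opened and 32210 closed distal peaks and 5361 closed promoter peaks.

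**Figure D1:**
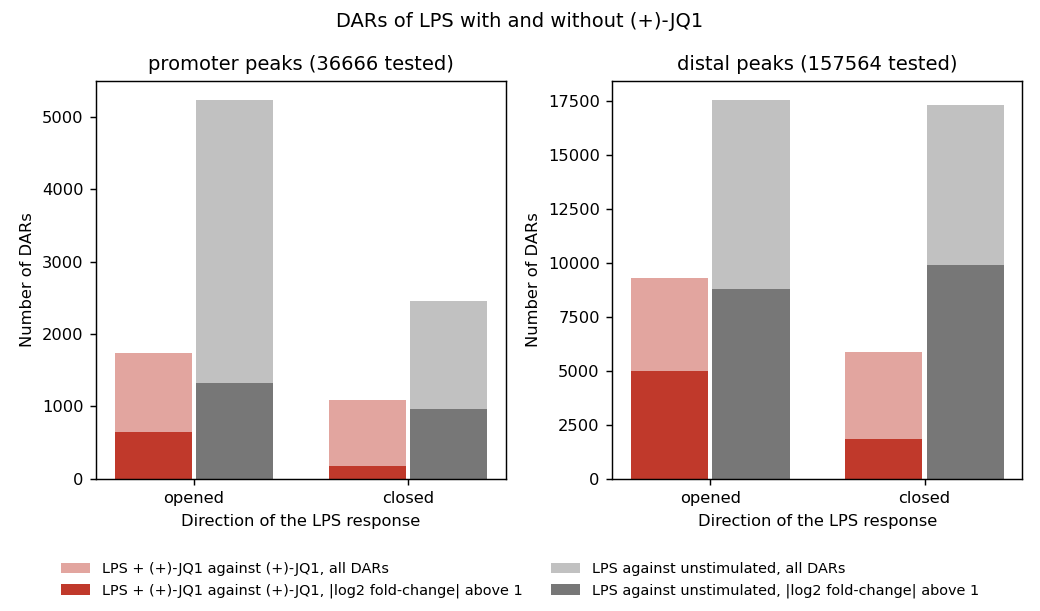
Number of promoter (left) and distal (right) DARs that opened or closed after LPS, in red for LPS + (+)-JQ1 against (+)-JQ1 and in gray for LPS against unstimulated, with the dark part of each bar marking a log2 fold-change beyond 1. With (+)-JQ1 the closed bars are the shortest, at 1089 promoter and 5865 distal DARs, and their dark parts hold 170 and 1841.

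The response was seen in every replicate number. Of the opened distal DARs, 98.3% were higher after LPS in all 3 same-numbered comparisons, and for 95.4% the LPS + (+)-JQ1 libraries lay entirely above the (+)-JQ1 libraries, although the call itself favors such peaks. The median change of the opened distal DARs was 1.20 in replicate 1, 0.96 in replicate 2 and 0.90 in replicate 3 on the log2 scale, and that of the closed distal DARs -0.95, -0.76 and -0.77. Promoters followed the same order, with 1.00, 0.84 and 0.78 for opened and -0.79, -0.64 and -0.64 for closed DARs. Replicate 1 had the largest median in each class. Without LPS + (+)-JQ1 replicate 1 the numbers fell to 6590 opened and 3641 closed distal peaks and to 1298 opened and 702 closed promoter peaks, so that the closed counts moved by more than 1.5 times. Its sequencing lane was that of both (+)-JQ1 libraries 1 and 2 (lane 5), whereas the other LPS + (+)-JQ1 libraries were on lane 6, and the part of depth and lane in its larger changes was not tested.

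Short stretches of reference sequence show the DNA under peaks described below. Each is the central 200 bp of a peak, read from mm9 on the plus strand, 5′ to 3′, with capitals marking a match to a searched motif on either strand. The peak downstream of Nfkbia (chr12:56585463-56585662) held a kappaB match (GGGA and CC with any 4 bases between, or the reverse complement) from position 105, and Il12b is represented by the peak upstream of its promoter (chr11:44203622-44203821), with a C/EBP match (TTGCNNAA) from position 21. They are shown as the opened peaks with the smallest FDR near the genes of the NF-kappaB and cytokine lists. The Mrpl39 window (chr16:84713356-84713555) belongs to a promoter peak of large rise and had a kappaB match from position 140. P2ry1 (chr3:60937117-60937316), with a C/EBP match from position 68, is a peak that closed, and Il1b (chr2:129188737-129188936), with a kappaB match from position 177, is the peak whose opening was most reduced. These windows were printed because they held a match. The windows of the peaks near Gbp7, Ccl3, Zfp422, Arrdc3, Ckap2l, Traf1 and Trim30b were read too, held no match to the motifs searched and are not printed.
Nfkbia: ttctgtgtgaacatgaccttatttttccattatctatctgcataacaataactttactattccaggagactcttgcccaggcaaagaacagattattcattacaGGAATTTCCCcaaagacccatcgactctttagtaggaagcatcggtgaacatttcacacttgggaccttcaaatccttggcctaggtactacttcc
Il12b: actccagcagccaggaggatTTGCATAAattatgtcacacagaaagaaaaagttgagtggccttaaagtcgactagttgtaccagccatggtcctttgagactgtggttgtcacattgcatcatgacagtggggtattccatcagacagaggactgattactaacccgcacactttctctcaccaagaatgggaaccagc
Mrpl39: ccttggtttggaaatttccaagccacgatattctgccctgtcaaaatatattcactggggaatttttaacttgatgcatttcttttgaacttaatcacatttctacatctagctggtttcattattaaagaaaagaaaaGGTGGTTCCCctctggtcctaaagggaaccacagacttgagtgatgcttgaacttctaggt
P2ry1: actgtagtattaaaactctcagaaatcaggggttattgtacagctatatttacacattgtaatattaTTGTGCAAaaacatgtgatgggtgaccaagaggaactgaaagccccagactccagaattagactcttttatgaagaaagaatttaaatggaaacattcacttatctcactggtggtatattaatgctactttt
Il1b: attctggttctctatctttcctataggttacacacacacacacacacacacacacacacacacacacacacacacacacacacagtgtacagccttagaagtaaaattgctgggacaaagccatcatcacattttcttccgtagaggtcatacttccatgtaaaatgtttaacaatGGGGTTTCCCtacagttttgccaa
The kappaB letters occurred in the central 200 bp of 8.85% of all distal and 12.9% of all promoter peaks, and the C/EBP letters in 9.02% and 6.68%. A match is a description of these letters and not evidence that a factor binds there.

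By the naming rule, which requires a mean of 50 normalized counts, the largest distal rise was near Gbp7. At the peak 5.74 kb upstream of Gbp7 (chr3:142187181-142187943), a gene for an interferon-inducible GTPase, normalized counts were 16.8, 13.2 and 5.89 with (+)-JQ1 and 353, 185 and 248 after LPS. All LPS libraries lay far above every library without it, and the log2 fold-change was 4.46 ± 0.26 (SE, n = 3 per group, FDR 3.14e-28 by edgeR). In untreated cells the same peak rose by 4.80 ± 0.22 on the log2 scale. The peak 3.51 kb upstream of Ifit3 (chr19:34653883-34655146), which encodes an antiviral protein, went from 14.6, 5.26 and 13.7 to 139.9, 275 and 275 normalized counts, a log2 fold-change of 4.33 ± 0.25 (SE, n = 3 per group, edgeR FDR 1.04e-27). Here replicate 1 was the lowest of the LPS + (+)-JQ1 libraries, the reverse of its place at most opened peaks. The other distal peaks with the largest rises lay 12.0 kb from Mrpl39 (log2 fold-change 4.14), a mitochondrial ribosomal protein gene, 44.9 kb from Lpp (3.67), an adaptor of cell adhesion sites, and 44.3 kb from Parp14 (3.65), an ADP-ribosyltransferase of the interferon response, inside the neighboring Hspbap1. At none of these 5 peaks did the difference from untreated cells pass the test of the interaction (edgeR FDR 0.617 to 0.996), whose SE was 0.38 to 0.60 on the log2 scale.

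Among promoter peaks the largest rise was at Ccl5, a chemokine that attracts T cells and monocytes. The peak over its transcription start site (TSS; chr11:83343408-83344339) had 23.5, 15.8 and 23.6 normalized counts with (+)-JQ1 and 555, 393 and 341 after LPS. The groups were far apart, with a log2 fold-change of 4.31 ± 0.21 (SE, n = 3 per group, edgeR FDR 2.29e-33) against 4.91 ± 0.20 in untreated cells. Mx2, an antiviral GTPase, followed with 8.96, 15.8 and 13.7 rising to 166, 193 and 168 (3.77 ± 0.24), at a peak that the authors classed as a promoter and that lies 31.0 kb from the Mx2 TSS, over an exon of the neighboring Tmprss2. Rnf213, a ubiquitin ligase, rose at its own start site from 23.5, 11.8 and 11.8 to 114, 155 and 128 (3.07 ± 0.25). Zfp422, a zinc finger gene (2.99 ± 0.22), and a second peak near Mrpl39, 22.0 kb from its TSS (2.92 ± 0.19), completed the 5. For Zfp422 the response in untreated cells was 2.06 ± 0.22 and for the Mrpl39 promoter peak 3.39 ± 0.19, and neither difference passed the test (FDR 0.0825 and 0.427). LPS + (+)-JQ1 was lower than LPS at Ccl5 (-0.78), Mx2 (-1.10) and Rnf213 (-0.57) on the log2 scale (edgeR FDR 0.041 or lower). It was higher at Zfp422 (0.60, FDR 0.0250), and the Mrpl39 promoter peak did not pass (-0.45, FDR 0.0569).

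The largest fall was at a peak over an exon of Ccdc152 (chr15:3232292-3233828), 11.0 kb from the TSS of Sepp1, the gene of the secreted selenium carrier selenoprotein P, where 430.2, 641 and 568 normalized counts became 28.8, 75.9 and 56.1 after LPS. Every LPS library lay below every other, and the peak fell by 3.30 ± 0.18 on the log2 scale (SE, n = 3 per group, edgeR FDR 5.52e-29). (+)-JQ1 alone had raised this peak by 1.68 on the log2 scale over unstimulated cells (FDR 9.26e-13), and in untreated cells LPS lowered it by a log2 fold-change of -2.44 ± 0.21. A peak over a UTR of Apoe, whose nearest TSS was that of Apoc1, both apolipoprotein genes, closed from 909.8, 1199 and 1175 to 229, 306 and 254 counts (chr7:20278523-20282743, -2.05 ± 0.15), nearly the same as in untreated cells (-2.04 ± 0.16). The Apoe promoter itself went from 415, 597 and 480.2 to 157, 169 and 157 (-1.62 ± 0.15), again with no overlap of the groups. Arrdc3, an arrestin-domain adaptor (-2.26), P2ry1, an ADP receptor 130.5 kb from its peak (-2.05), and Slc7a13, an amino acid transporter (-1.99), gave the other distal falls. The other promoter falls were at 6330512M04Rik (-2.01), where the peak also overlaps Ctsd, Ednrb (-1.62), the endothelin B receptor, whose peak lay 101.6 kb from the TSS, Nt5dc2 (-1.52) and Tbc1d22a (-1.47). At none of these 10 falls did the difference from untreated cells pass an FDR of 0.05 in the edgeR interaction test, with the lowest at Sepp1 (FDR 0.0798). (+)-JQ1 alone was also higher than unstimulated at the Apoc1 (0.77), Apoe promoter (0.73), Arrdc3 (0.75), P2ry1 (0.94), Ednrb (1.05) and Tbc1d22a (1.01) peaks (edgeR FDR 0.00025 or lower). At Slc7a13, 6330512M04Rik and Nt5dc2 it was not (FDR 0.533, 0.216 and 0.669). The Apoc1 peak stayed higher under LPS + (+)-JQ1 than under LPS (0.76, FDR 0.00059).

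**Figure D2:**
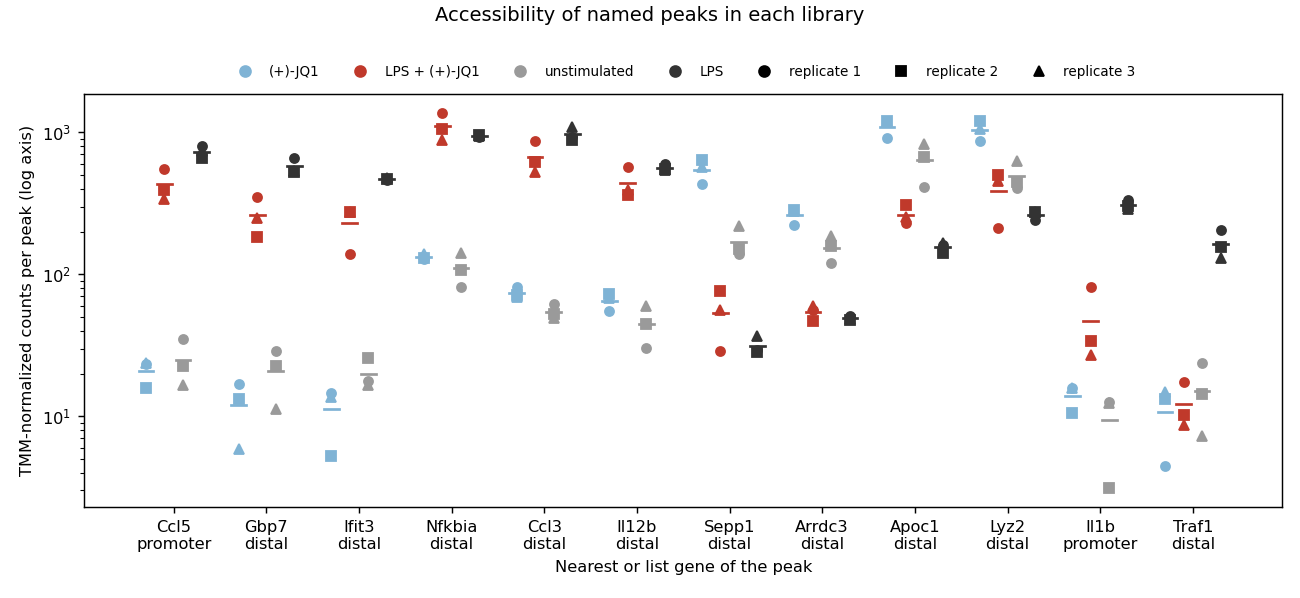
TMM-normalized counts (log axis) of 12 peaks in each library of (+)-JQ1 (blue), LPS + (+)-JQ1 (red), unstimulated (gray) and LPS (black) cells, with symbols for the replicate numbers and dashes for group means. The red symbols lie above the blue ones from Ccl5 to Il12b and below them from Sepp1 to Lyz2, while at Traf1 they overlap, at 8.74 to 17.3 against 4.48 to 14.7 counts.

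Gene lists describe the LPS response by the roles of the genes. For each list, the peaks within 25 kb of any annotated TSS of its genes were counted and are read against the 5.69% opened and 3.58% closed over all peaks. The 13 interferon-beta and interferon-stimulated genes had the largest share, with 125 of 230 peaks opened (54.4%), against 169 in untreated cells. Within it, 21 of 23 peaks around Rsad2, an antiviral enzyme gene, opened, as did 20 of 23 around its neighbor Cmpk2, 13 of 17 around Mx1 and 14 of 18 around Gbp2. A peak near Gbp2 (chr3:142300619-142301894) had 22.4, 18.4 and 26.5 normalized counts with (+)-JQ1 and 294, 248 and 270.3 after LPS (log2 fold-change 3.56 ± 0.21, 3.49 ± 0.19 in untreated cells). Oasl1, an antiviral oligoadenylate synthetase homolog, and Irgm1, an immunity-related GTPase, had 8 of 26 and 6 of 23 peaks opened, against 22 and 16 in untreated cells, a difference that was not tested by gene. Interferon-beta itself, Ifnb1, had 1 opened peak of 17. The median log2 fold-change of the list was 0.90 with (+)-JQ1 and 1.36 without, and 46 of its peaks had a smaller LPS effect with (+)-JQ1 at an interaction FDR under 0.05, a call made at 3.19% of all peaks.

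NF-kappaB subunits and inhibitors were next, with 112 of 244 peaks opened (45.9%), nearly the 123 of untreated cells, and medians of 0.61 and 0.66. The strongest was the peak 8.07 kb downstream of the TSS of Nfkbia (chr12:56584705-56586420), which encodes the inhibitor IkappaB-alpha. Its normalized counts were 128, 130.3 and 138 with (+)-JQ1 and 1377, 1058 and 888 after LPS, a log2 fold-change of 3.06 ± 0.17 (SE, n = 3 per group, edgeR FDR 7.67e-30) against 3.09 ± 0.17 in untreated cells. The difference of -0.03 ± 0.23 spans zero, and both LPS groups were well above both groups without LPS. Nfkb1, the p105/p50 subunit, had 32 of 43 peaks opened, Tnfaip3, the ubiquitin-editing inhibitor A20, 14 of 22 and Nfkbiz, an inducible nuclear cofactor, 12 of 19. A peak 22.9 kb from the TSS of Rel, the c-Rel subunit, rose more with (+)-JQ1, from 165, 164 and 169 to 979, 636 and 738 counts (2.23 ± 0.15 against 1.51 ± 0.14, interaction FDR 0.0279), a difference that was lost in about as many alternatives as it was kept. Rela, the p65 subunit, had 18 peaks with log2 fold-changes of -0.28 to 0.41, and none was called. Of the 244 peaks, 13 had a smaller LPS effect with (+)-JQ1 and 2 a larger one, where 3.19% of all peaks had a smaller effect.

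Feedback inhibitors of signaling and mRNA decay factors gave 58 opened of 217 peaks (26.7%), with 78 in untreated cells. Dusp2, a phosphatase of MAP kinases, had 13 of 19 opened, and its leading peak rose from 205, 196 and 191 to 1328, 781 and 788 normalized counts (log2 fold-change 2.28 ± 0.15). Socs3, an inhibitor of cytokine receptor signaling, had 14 of 27 opened, and its leading peak went from 143, 108 and 112 to 832, 422 and 449 (2.21 ± 0.17). In both, replicate 1 was the highest and no LPS library overlapped the (+)-JQ1 libraries. Neither difference from untreated cells passed the interaction test (FDR 0.551 and 0.917).

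Chemokines had 66 of 147 peaks opened (44.9%), 80 in untreated cells, and cytokines 62 of 187 (33.2%), 111 in untreated cells. All 13 peaks around Ccl5 opened, and 13 of 21 around Ccl3, a chemokine for monocytes. The leading Ccl3 peak (chr11:83478264-83479880) went from 81.8, 71.0 and 69.7 to 875, 618 and 529.6 normalized counts (3.17 ± 0.17 against 4.15 ± 0.17 in untreated cells, interaction FDR 0.0128). Around Cxcl3, a neutrophil chemokine, none of 12 peaks opened and the 2 closed chemokine peaks lay there, although 9 of 15 opened around its neighbor Cxcl1. For the cytokines the median log2 fold-change was 0.49 with (+)-JQ1 and 0.86 without, and 43 of 187 peaks had a smaller effect. Tnf had 10 opened of 15 peaks, with 8 in untreated cells, whereas Il6 had 4 of 13 against 9, Il1a 10 of 21 against 20 and Il1b 6 of 20 against 14. Beside the Il12b peak described below, the other opened cytokine peak named by the rule overlapped UTRs of Tnf and Ltb. It lay 7.82 kb from the TSS of the lymphotoxin gene Lta and rose from 463, 589 and 540.1 to 2143, 1738 and 1573 counts (1.77 ± 0.14). Without LPS + (+)-JQ1 replicate 1, 47 cytokine, 54 chemokine, 103 NF-kappaB and 121 interferon peaks opened.

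Effector enzymes and surface molecules had 62 of 199 peaks opened (31.2%), against 90 in untreated cells. Cd69, an early activation antigen, rose at its leading peak from 29.1, 34.2 and 37.3 to 471, 298 and 289.9 normalized counts (3.37 ± 0.19), and Cd274, the checkpoint ligand PD-L1, from 20.2, 23.7 and 28.5 to 231, 192 and 201 (3.08 ± 0.21). Irg1, the enzyme that makes itaconate, had 10 of 21 peaks opened against 19 in untreated cells. The 2 closed peaks were near Arg1 and Arg2, the arginases. Interferon regulatory factors and STATs had 48 of 208 peaks opened (23.1%), 87 in untreated cells, with 6 of 14 around Irf7. The leading Irf7 peak went from 207, 150.0 and 188 to 640.2, 789 and 701 counts (1.96 ± 0.15 against 2.27 ± 0.14), while at Irf1 the rise from 432, 339 and 372 to 1403, 1191 and 1134 was smaller than in untreated cells (1.70 ± 0.14 against 2.55 ± 0.14, interaction FDR 0.00574).

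The receptor complex that senses LPS changed less, with 31 of 242 peaks opened (12.8%) and 14 of them around Irak2, a kinase of the MyD88 pathway. Without LPS + (+)-JQ1 replicate 1, 23 opened. AP-1, ATF and Maf factors had 17 of 229 opened (7.42%), close to the share of all peaks, against 51 in untreated cells. The medians of this list lay closer together, at 0.22 with (+)-JQ1 and 0.28 without. By the interaction 15 of its peaks had a smaller and 3 a larger LPS effect, where 3.19% of all peaks had a smaller effect. Atf3, a stress-induced repressor and activator, supplied 9 of the 17, and around Fos, Fosb, Fosl1, Jun and Jund no peak was called. Around Fosl2, a Fos family member, 3 peaks closed, led by 226, 195 and 197 falling to 90.8, 94.3 and 111 normalized counts (-1.04 ± 0.16 against -0.29 ± 0.16, interaction FDR 0.0373, also lost in many alternatives). For the cytokine, interferon, NF-kappaB and feedback lists no closed peak was called by edgeR at an FDR under 0.05, and 2, 0, 1 and 0 peaks passed the same fold-change at an unadjusted p under 0.05, while DESeq2 called 1, 0, 0 and 0.

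Lipid handling and cholesterol efflux was the list with the most closing, 28 of 204 peaks (13.7%) against 7 opened (3.43%). Abca1, the cholesterol exporter, had 11 of 24 peaks closed, Gpnmb, a lysosomal glycoprotein, 7 of 21, and Apoe 6 of 16. In untreated cells 45 peaks of the list closed, and without LPS + (+)-JQ1 replicate 1 the number with (+)-JQ1 was 20. Lineage factors and surface markers had 24 of 247 peaks opened (9.72%) and 19 closed (7.69%). Spi1, which encodes the lineage factor PU.1, had 8 of 14 opened, and Emr1, which encodes the F4/80 antigen, 6 of 17, with a leading peak rising from 94.1, 82.9 and 127 to 425, 331 and 364 counts (1.86 ± 0.16). Closed peaks lay near Mertk (6 of 29), a receptor for dying cells, and Lyz2 (5 of 15), lysozyme, whose leading peak fell from 869, 1199 and 1063 to 212, 499 and 455 (-1.40 ± 0.16). The median of the lineage list was -0.01, and it was 0.03 with total counts in place of TMM, so its sign depended on the scaling. At Cebpb, a factor of myeloid genes, the leading peak rose more with (+)-JQ1 (1.23 ± 0.15 against 0.49 ± 0.14, interaction FDR 0.0214).

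Lists outside the inflammatory program stayed near the share of all peaks. BET proteins and P-TEFb had 10 of 152 peaks opened, 7 of them around Brd2, whose leading peak went from 1021, 1080 and 1027 to 1678, 1749 and 1616 normalized counts (0.69 ± 0.13). At Cdk9, the kinase of P-TEFb, the promoter fell from 1043, 1199 and 1090 to 757, 882 and 717 (-0.50 ± 0.13), whereas in untreated cells it was 0.29 ± 0.14 (interaction FDR 0.00913). (+)-JQ1 alone had raised both, by 0.81 at Brd2 and 0.90 at Cdk9 on the log2 scale. Cell cycle genes had 6 of 187 peaks opened and housekeeping genes 12 of 186, of which 4 lay around Actb and 4 around Rps18. The lists overlapped little, with 4 of 2875 peaks in more than 1 list, and within 10 kb of a TSS the opened share was 57.3% for chemokines and 63.7% for interferon genes, but 6.45% for BET proteins, 1.18% for cell cycle and 5.95% for housekeeping genes.

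**Figure D3:**
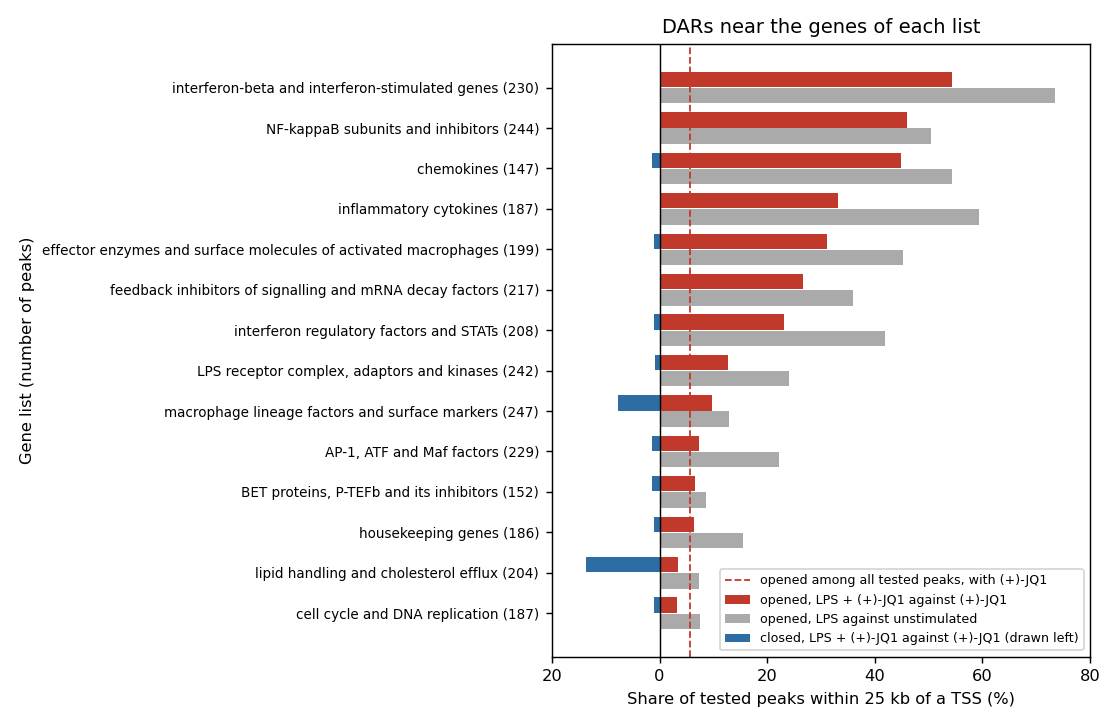
Share of peaks within 25 kb of a TSS of each gene list that opened with (+)-JQ1 (red), opened in untreated cells (gray) or closed with (+)-JQ1 (blue, drawn to the left), with the number of peaks in brackets and a dashed line at the 5.69% opened over all peaks. Interferon genes are at the top with 54.4% opened, and lipid handling is the list with the longest blue bar, 13.7% closed.

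Il12b, the p40 subunit shared by IL-12 and IL-23, responded unevenly along its locus. Of 18 peaks within 25 kb of its TSS, 4 opened with (+)-JQ1 and 13 without. The peak 9.84 kb upstream (chr11:44203226-44204217) went from 54.9, 72.4 and 67.8 to 569.5, 365 and 391.9 normalized counts, a log2 fold-change of 2.76 ± 0.17 (SE, n = 3 per group, edgeR FDR 1.29e-25) against 3.63 ± 0.18 in untreated cells. All LPS + (+)-JQ1 libraries lay above all (+)-JQ1 libraries, and the difference between the responses, -0.88 ± 0.26, had an interaction FDR of 0.0348, which passed the threshold in only part of the alternatives. Its neighbor 10.8 kb upstream rose by 2.38 ± 0.42, and the promoter peak by 0.68 ± 0.15, from 183, 169.7 and 143 to 301, 253 and 242 counts. Downstream of the TSS no peak was called opened with (+)-JQ1. At the peak 5.81 kb downstream counts were 51.5, 40.8 and 37.3 with (+)-JQ1 and 34.6, 24.6 and 29.1 after LPS, which was not past the threshold (-0.57 ± 0.26, FDR 0.177), whereas it rose by 1.14 ± 0.23 in untreated cells (interaction -1.71 ± 0.35, FDR 0.00243). Those 14.8 and 17.1 kb downstream also had smaller LPS effects with (+)-JQ1, by -1.30 ± 0.21 and -1.28 ± 0.31.

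The Il10 locus is the targeted gene of these mice, but every library carries the same deletion and its extent is not given in the sources used here, so accessibility there does not check the labels. Of 20 peaks within 25 kb of the Il10 TSS, 13 opened with (+)-JQ1 and 11 without. None closed, also at an unadjusted p under 0.05 or by DESeq2, and none had an interaction FDR under 0.05 in edgeR or DESeq2, with 4 at an unadjusted p under 0.05. The peak at the promoter had a log2 fold-change of 0.00 ± 0.19, and the rises were largest downstream of the gene. There the peak 21.0 kb from the TSS went from 12.3, 28.9 and 22.6 to 222, 129 and 90.3 normalized counts (2.76 ± 0.26), with the LPS libraries above all others and replicate 1 the highest.

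**Figure D4:**
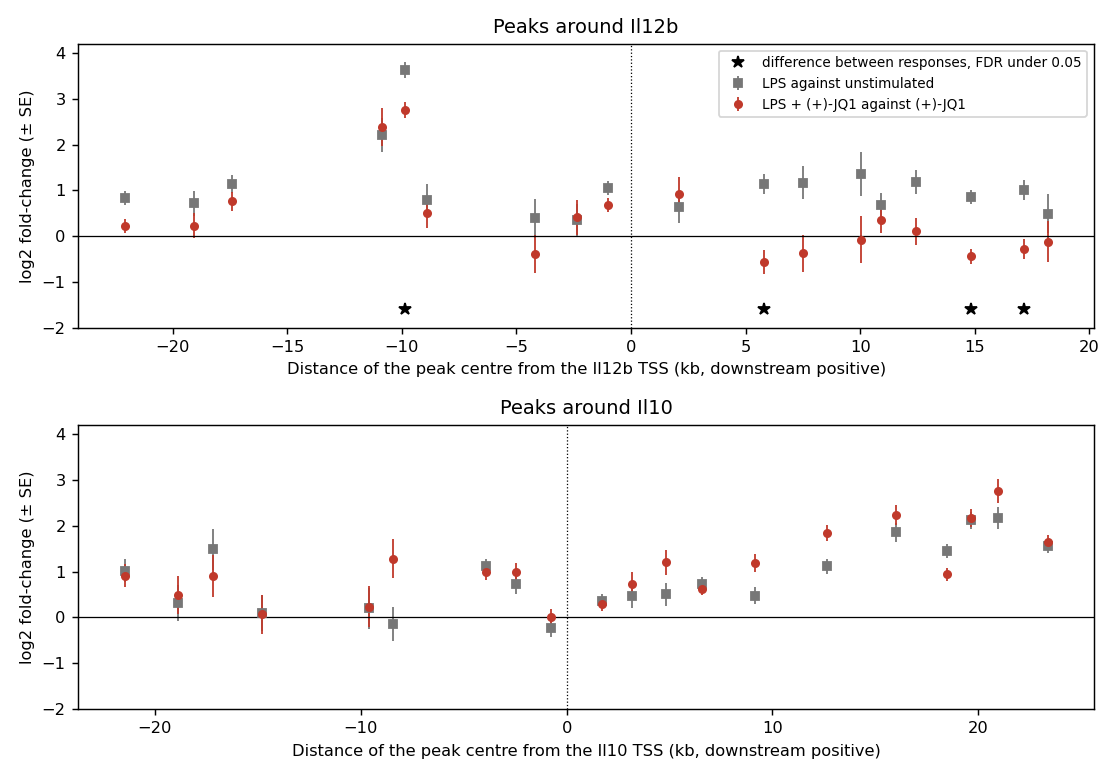
Log2 fold-change (± SE) of each peak within 25 kb of the Il12b (top) and Il10 (bottom) TSS by distance of the peak centre, for LPS + (+)-JQ1 against (+)-JQ1 (red) and LPS against unstimulated (gray), with stars for a difference between the responses at an FDR under 0.05. At Il12b red and gray separate downstream of the TSS, where 3 of the 4 stars lie, and at Il10 no peak has a star.

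Across the genome the responses overlapped in most of what opened with (+)-JQ1 and less in what opened without it. Of the 11046 peaks opened with (+)-JQ1, 8233 (74.5%) also opened in untreated cells, and these were 36.1% of the untreated openings. For closed peaks 3648 were shared, 52.5% of those with (+)-JQ1 and 18.4% of those without. Opposite calls were made at 11 peaks that opened and 15 that closed with (+)-JQ1. With total counts in peaks in place of TMM, the shared openings were 59.7% of those with (+)-JQ1 and 57.2% of those without. The log2 fold-changes correlated at r = 0.54 over 194230 peaks, 0.56 for distal and 0.44 for promoter peaks, where all peaks share the same libraries and are not independent. Peaks chosen as opened with (+)-JQ1 had a median of 1.02 there and 1.04 in untreated cells, and the interaction was not called at 10227 of them, was smaller at 612 and larger at 207. A further 2813 peaks opened and 3306 closed with (+)-JQ1 without being called in untreated cells, which is not a test of a difference.

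How far a typical untreated response was kept is shown by the peaks that opened beyond a log2 fold-change of 1 in untreated cells, a choice that fixes the untreated values. Of 8807 such distal peaks, 4892 (55.5%) opened with (+)-JQ1 and 1109 had a smaller LPS effect by the interaction, and of 1317 promoter peaks 860 (65.3%) opened. The mean log2 CPM of the distal set changed by 1.06, 0.84 and 0.79 with (+)-JQ1 in replicates 1, 2 and 3, against 1.43, 1.47 and 1.53 in untreated cells. The treated response was thus 0.740, 0.570 and 0.517 of the untreated response (mean 0.609 ± 0.117, SD, n = 3), with the highest ratio in replicate 1, although the numbers are not known to join the libraries. For the promoter set the changes were 0.98, 0.83 and 0.79, and for the 9883 distal peaks that closed below -1 in untreated cells -0.48, -0.34 and -0.32 against -1.38, -1.29 and -1.01. The closing response was thus 0.308 ± 0.0402 (SD, n = 3) of its untreated size. How much was kept depended on the scaling. Peaks called opened in untreated cells had medians of 0.48 with (+)-JQ1 and 0.93 without, and those called closed -0.39 and -1.04. With total counts in place of TMM, the peaks then called had 0.76 and 1 for opened and -0.26 and -1.06 for closed. Selection on the untreated contrast favors large untreated changes and thus low ratios, so no test of these ratios is given.

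The test of the difference between the responses found smaller LPS effects with (+)-JQ1 at 4109 promoter peaks (11.2%) and 2093 distal peaks (1.33%), and larger effects at 225 (0.614%) and 1036 (0.658%). The groups behind these calls differed by the kind of peak. At 3687 of the 4109 promoter peaks (+)-JQ1 alone was higher than unstimulated, a call made at 22.9% of promoter and 4.34% of distal peaks, with a median log2 difference of 0.75 without LPS and of 0.03 under LPS. At the 2093 distal peaks (+)-JQ1 alone was higher at 941, and LPS + (+)-JQ1 was lower than LPS at 906, a call made at 3.55% of distal peaks. Of the 1036 distal peaks with a larger effect, 784 closed in untreated cells, and the medians were -1.19 there and 0.47 with (+)-JQ1. The split rests on the scaling. Smaller effects were 83.1% of all calls with TMM, 69.2% when promoter and distal peaks were scaled apart, 39.4% with loess offsets and 34.6% with total counts in peaks.

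Among single peaks the most reduced opening was near Il1b, which encodes the fever cytokine IL-1beta. At a peak 4.25 kb from its TSS (chr2:129188319-129189354), normalized counts were 15.7, 10.5 and 15.7 with (+)-JQ1 and 80.7, 33.8 and 27.0 after LPS, while in untreated cells they went from 12.6, 3.10 and 12.4 to 332, 305 and 289. The treated groups did not overlap, yet the 3 LPS + (+)-JQ1 libraries stayed far below the 3 LPS libraries. The log2 fold-changes were 1.61 ± 0.31 and 5.06 ± 0.27, a difference of -3.45 ± 0.47 (edgeR interaction FDR 1.28e-06). A peak 21.3 kb from Traf1, a TNF receptor adaptor, had 4.48, 13.2 and 14.7 against 17.3, 10.3 and 8.74 counts, so the groups overlapped (0.07 ± 0.44), and rose by 3.47 ± 0.31 in untreated cells (difference -3.40 ± 0.56, FDR 7.45e-05). Near Ckap2l, a mitotic spindle gene, and near Trim30b, a member of the TRIM30 family, the differences were -2.86 ± 0.39 and -2.63 ± 0.32. The Ckap2l peak (chr2:129123886-129124849) lies close to the Il1b peak, so they may not be independent cases. Opposite cases were Entpd1, the ATP-degrading enzyme CD39 (1.97 ± 0.38), Tgfbr1, a TGF-beta receptor (1.85 ± 0.33), and Frrs1, a ferric reductase (1.76 ± 0.30), whose peaks closed in untreated cells and did not pass the test with (+)-JQ1. At those peaks (+)-JQ1 alone was already lower than unstimulated, by -1.90, -1.08 and -1.03 on the log2 scale. Srxn1, sulfiredoxin of the oxidative stress response, opened with (+)-JQ1 from 78.4, 27.6 and 54.0 to 160.0, 147 and 107 counts (1.33 ± 0.24) but not without (-0.47 ± 0.27, FDR 0.203; difference 1.80 ± 0.36, FDR 0.00185).

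**Figure D5:**
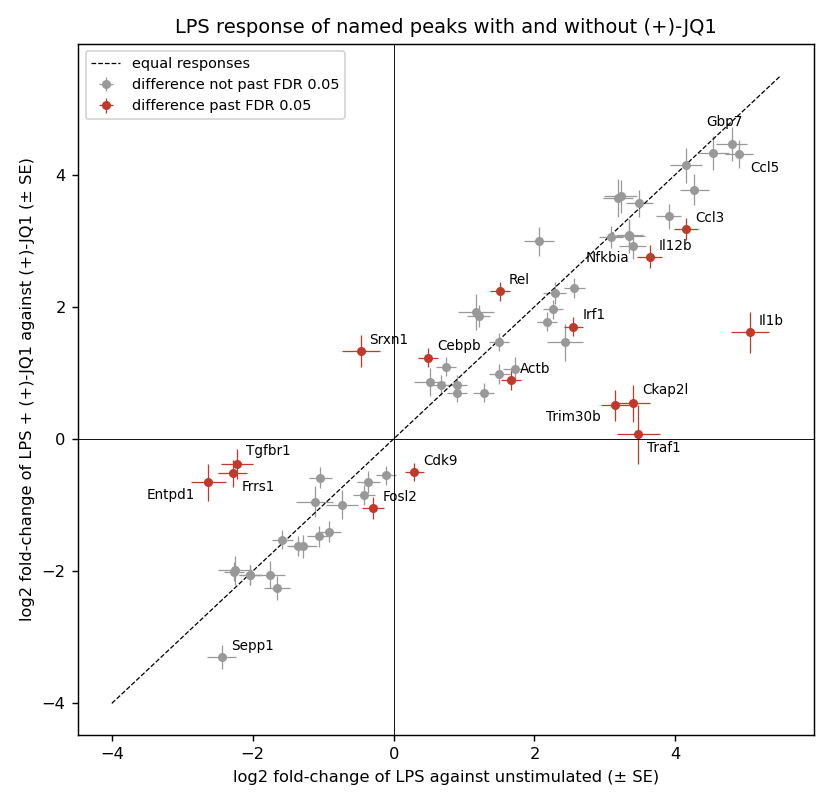
Log2 fold-change (± SE) of each named peak for LPS + (+)-JQ1 against (+)-JQ1 (vertical) and for LPS against unstimulated (horizontal), in red where the difference passed an FDR of 0.05, with equal responses on the dashed line. Gbp7, Ccl5 and Nfkbia lie near the line, and Il1b lies farthest below it, at 1.61 against 5.06.

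The calls did not use the sequence under the peaks, which is described here beside that of all peaks and without a test. In the central 500 bp, the AP-1 letters TGANTCA occurred in 26.5% of opened and 16.2% of closed distal DARs, against 19.3% of all distal peaks. The interferon response letters GAAA and GAAA with any 2 bases between, on either strand like all motifs here, occurred in 13.9%, 6.09% and 7.44%, and the kappaB letters in 22.8%, 17.6% and 20.02%. Closed distal DARs held the PU.1 letters GAGGAAGT more often, at 11.4% against 5.26% of opened and 6.98% of all, and the C/EBP letters at 26.8% against 21.4% and 20.5%. The CTCF core was in 0.526% of opened, 0.597% of closed and 1.46% of all distal peaks. Among the 610 distal peaks above a log2 fold-change of 2, the interferon letters were in 17.5% and the kappaB letters in 26.6%. Of the distal peaks that opened beyond 1 in untreated cells, 57.5% of 2283 with the AP-1 letters, 59.1% of 1333 with the interferon letters and 60.2% of 1973 with the kappaB letters opened with (+)-JQ1, and 53.1% of 4264 with none of the 3.

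Other properties moved with the calls. Opened distal DARs had a median GC content of 44.1%, against 45.7% of closed DARs and 45.6% of all distal peaks, and lay a median 16.9 kb from a TSS, against 24.2 and 15.8 kb. Their median count with (+)-JQ1 was 44.4, that of closed DARs 110 and that of all distal peaks 26.9. Over all peaks the median log2 fold-change went from 0.12 in the fifth of lowest GC content to -0.12 in the fifth of highest, and the opened share from 8.44% to 2.58%. Peaks were also divided into 4 equal parts by mean count in the (+)-JQ1 libraries. In the weakest part 2138 opened and 83 closed, and in the strongest 3650 opened and 4426 closed. These libraries are the baseline of the contrast, so a division by them favors openings among weak and closings among strong peaks. The part of GC content and peak strength in the calls was not tested beyond the fits with these corrections.

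As a measure that needs no scaling between libraries, the log2 ratio of all distal to all promoter counts was 0.09, -0.06 and 0.07 in the (+)-JQ1 libraries and 0.21, 0.12 and 0.23 in the LPS + (+)-JQ1 libraries. The groups did not overlap, and the means differed by 0.16. By exact permutation of the libraries (two-sided) p was 0.1, the smallest that 3 against 3 allow. In untreated cells the difference was -0.17 (exact permutation p = 0.3), and the difference between the contrasts was not tested.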

How the data were processed

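ATAC-seq was performed on 18 libraries of Il10-/- BMDMs, and the 3 LPS + (+)-JQ1 and 3 (+)-JQ1 libraries were taken by label. The authors aligned reads to mm9, called peaks in each library and deposited raw read counts in the union of peaks, divided into promoter and distal tables. The counting tool and any shift of reads for the transposase are not given in the sources used here. A further 6 columns matched no label and were not used.

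The deposited counts of 18 libraries in 6 groups were fitted together with edgeR 4.0.16 in R 4.3.3 (TMM, filterByExpr, quasi-likelihood test, Benjamini-Hochberg adjustment over 194230 tested peaks). The interaction contrast tested the difference between the LPS effects with and without (+)-JQ1. Normalized counts are counts divided by TMM-scaled library size and multiplied by the mean of that size over the 18 libraries. Genes are the nearest annotated TSS in the GENCODE mm9 annotation, which does not assign a target gene. Named peaks were the 5 largest rises and falls among distal and among promoter peaks (FDR below 0.05, mean normalized count of 50 or more, 1 direction in the 3 same-numbered comparisons, 1 peak per gene), the 4 strongest interactions in each direction, and for each gene list the 2 opened and 1 closed peak of smallest FDR within 25 kb. All peaks of the Il10 and Il12b loci were kept. Members and lists were chosen with earlier results of these data known.

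Alternatives were DESeq2 1.42.0, other scalings and filters, limma 3.58.1 loess offsets, a replicate block, GC and lane terms, and leaving out each library. On simulated counts the test recovered 137 of 200 peaks given a log2 change of 1.5 and called 3 unchanged peaks. The exact tests were computed in Python 3.11.15 over every division of the libraries or every change of sign of the paired differences.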

Additional observations from a re-analysis of the deposited data

Results flagged for a closer look

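The LPS effect with (+)-JQ1 differed from that in untreated cells, by the edgeR interaction test at an FDR under 0.05, at 19 of the named peaks. It was smaller on the log2 scale by -3.45 at the Il1b peak, -3.40 near Traf1, -2.86 near Ckap2l and -2.63 near Trim30b. It was larger by 1.97 near Entpd1, 1.85 near Tgfbr1, 1.80 near Srxn1 and 1.76 near Frrs1. These 8 peaks were named for this difference, which is therefore a description. Of the peaks named by other rules, the effect was smaller by -0.98 near Ccl3, -0.88 at the Il12b peak 9.84 kb upstream, -0.85 near Irf1, -0.79 at the Cdk9 promoter, -0.78 near Actb and -0.75 near Fosl2, and larger by 0.74 near Cebpb and 0.72 near Rel. Further along Il12b it was smaller by -1.71, -1.30 and -1.28 at the peaks 5.81, 14.8 and 17.1 kb downstream.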

How the results depend on the processing

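Of 2577 recomputed values of the LPS effect at named peaks, 2498 kept direction and side of the threshold, 44 lost the call, 14 gained it and 21 changed sign, all of the last at peaks not called. Of 472 interaction values 406 kept the call and 66 lost it. DESeq2 gave 6629 promoter and 3546 distal peaks with a smaller and 589 distal peaks with a larger LPS effect, and a minimum of 10 counts 439 promoter peaks with a larger effect. A test against the fold-change threshold left 546 opened and 100 closed promoter and 3309 opened and 743 closed distal peaks, with 11 smaller and 1 larger effects at promoters and 74 and 16 at distal peaks. Loess offsets gave 233 smaller and 654 larger effects at promoters and 834 smaller at distal peaks. Tables scaled apart gave 1712 larger effects at promoters, 408 at distal peaks and 647 closed promoters. Total counts gave 1847 smaller and 1005 larger effects at promoters and 637 and 3692 at distal peaks. A fit of only the groups compared gave 1969 and 125 at promoters and 1319 and 574 at distal peaks. An FDR of 0.01 gave 818 and 32, 546 and 158, and 3309 closed distal peaks. Leaving out each library gave 1298 to 1810 opened and 702 to 1410 closed promoter peaks, 6590 to 9801 opened and 3641 to 6231 closed distal peaks, 727 to 8550 smaller and 68 to 441 larger effects at promoters, 694 to 5601 and 318 to 2479 at distal peaks, and a distal to promoter log2 ratio of 0.14 to 0.17. The cause of these shifts was not tested. The sign at the Il10 promoter peak changed with DESeq2 (-0.010), RLE scaling (-0.0081), lane (-0.058) and loess (-0.022), and without single libraries (-0.063 to 0.068). At Il12b the uncalled peak 10.0 kb downstream gave 0.21 with lane and -0.46 to 0.25 without single libraries, those 12.4 and 18.2 kb downstream -0.061 to 0.25 and -0.47 to 0.14, the Il10 peak 14.8 kb upstream -0.26 to 0.40 and the Traf1 peak -0.30 to 0.41.

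Replicate numbers are shared across groups, but the sources used here do not say that a number marks a mouse. Deviations of same-numbered libraries correlated at 0.0260, 0.0333 and 0.00884 and those of other pairs at -0.041 to 0.013, and not every library correlated best with its own number. With the replicate block, 1762 promoter peaks opened and 1109 closed, and 9440 distal peaks opened and 6000 closed. At named peaks it turned the Il10 promoter peak to -0.0064, called the Il10 peak 3.20 kb downstream (adjusted p 0.0475, edgeR) and moved the Il12b peak 14.8 kb downstream, which was under the fold-change threshold, from an adjusted p of 0.0499 to 0.0546 (edgeR). The distal to promoter log2 ratio differed by 0.16 with the block (exact paired p 0.25, the smallest for 3 pairs). With the replicate block and a GC correction, 2157 promoter peaks had a smaller and 688 distal peaks a larger LPS effect.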

Other observations

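By locus, counting peaks from 25 kb before the first to 25 kb after the last annotated TSS of each protein-coding gene, 5162 of 22238 genes had at least 1 peak that opened after LPS with (+)-JQ1 and 3881 at least 1 that closed. The loci with the most opened peaks were Slco3a1, an organic anion transporter, with 43 of 94, Alcam, an adhesion molecule, with 40 of 115, and Ptprj, a receptor tyrosine phosphatase, with 37 of 52. Closed peaks were most numerous around Abca1 with 19 of 36 and Cerk, ceramide kinase, with 18 of 25. Neighboring loci share peaks, genes with TSSs far apart have wider windows, and no test was made of these counts.

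For replicates 1, 2 and 3 the median log2 change was 0.98, 0.87 and 0.96 for the interferon list, 0.81, 0.58 and 0.59 for NF-kappaB, 0.69, 0.78 and 0.64 for chemokines and 0.61, 0.43 and 0.45 for cytokines, so that replicate 1 was highest in 3 of these 4 lists.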
